A study of Arabidopsis thaliana with 9 samples.

Results

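The 9 Arabidopsis thaliana genes described here encode the enzymes of the first 3 steps of phenylpropanoid metabolism. They are PAL1, PAL2, PAL3 and PAL4, which encode phenylalanine ammonia-lyases, C4H, which encodes cinnamate 4-hydroxylase, and 4CL1, 4CL2, 4CL3 and 4CL5, which encode 4-coumarate:CoA ligases. They were taken by locus code from a table of 32833 loci, as the genes of these steps and with no threshold on their values. RNA was sequenced from whole wild-type seedlings of ecotype Col-0 that spent 5 days on solid and 5 days in liquid medium. The groups were seedlings treated with 200 uM 2-AA, seedlings treated with 100 nM flg22, and mock seedlings labelled as not treated, with 3 libraries each. 2-AA is 2'-aminoacetophenone, a quorum-sensing molecule made by Pseudomonas aeruginosa, and flg22 is a peptide of bacterial flagellin that plants perceive through the receptor FLS2. No label states how long the treatments lasted, the hour of harvest or the liquid given to mock seedlings. Both treated groups were compared with the same 3 mock libraries, so these comparisons are not independent of each other.

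Phenylalanine ammonia-lyase removes ammonia from phenylalanine and makes cinnamate. C4H, a cytochrome P450 enzyme of the endoplasmic reticulum, adds a hydroxyl group to give p-coumarate, and 4CL joins p-coumarate to coenzyme A. The product, p-coumaroyl-CoA, is the branch point from which plants make the monolignols of lignin, the flavonoids and other phenolic compounds. In Arabidopsis, PAL1, PAL2, C4H, 4CL1 and 4CL2 are best known for their part in lignin, and 4CL3 for its part in flavonoid synthesis. Phenylpropanoids also serve in defence, as cell wall phenolics and soluble antimicrobial compounds.

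Total counts ran between 26644996 and 33195007 per library. CPM are counts per 1000000 counts of a library, with its size scaled by TMM. Before that scaling, 3 counts corresponded to between 0.0904 and 0.113 per 1000000 counts. Every value of the 9 genes lay above that floor. The share of reads assigned to chloroplast genes stood apart in 3 libraries, at 0.241% in 2-AA replicate 2, 0.0743% in flg22 replicate 2 and 0.0980% in mock replicate 3, against 0.0211% to 0.0281% in the other 6. Results that changed without these 3 libraries are marked where they are given. Replicates of a group differed by more than counting noise in every pair, with a chi-square per degree of freedom of 5.62 to 31.8. The study calls them biological replicates without stating separate cultures, and p-values therefore reflect only the variation among the libraries at hand, which may be technical. Differences were tested with edgeR's quasi-likelihood test over 21059 genes, and a gene was called at a Benjamini-Hochberg adjusted p under 0.05.

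The sequence just upstream of the annotated starts was read for elements known from phenylpropanoid genes, and some of the stretches that held them are shown. The matches in all 9 genes are counted below, including those not printed. The windows were the 300 bases before each start in the TAIR10.1 assembly, sequences being RefSeq's, and both strands were searched. The motifs included 3 AC elements, which MYB factors bind: ACCTACC is the first, ACCAACC is known as the second and ACCTAAC is called the third. The others were the W-box core TTGAC, which WRKY factors bind, the G-box CACGTG and the evening element core AATATCT, which clock MYB-like factors bind. All stretches run 5′ to 3′ on the minus strand of the chromosome, which is the coding strand of each gene shown. Capitals mark the motif.
PAL1, chr2:15560756-15560875, W-box core: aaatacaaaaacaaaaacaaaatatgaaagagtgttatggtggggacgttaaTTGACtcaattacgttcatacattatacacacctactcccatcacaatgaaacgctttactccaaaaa
PAL2, chr3:19747115-19747234, W-box core: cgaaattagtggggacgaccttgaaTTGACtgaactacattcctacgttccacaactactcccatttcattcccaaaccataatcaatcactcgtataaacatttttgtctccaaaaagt
C4H, chr2:12996193-12996272, evening element core and W-box core: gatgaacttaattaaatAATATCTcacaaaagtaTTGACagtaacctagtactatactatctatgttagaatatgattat
4CL3, chr1:24171636-24171785, AC element: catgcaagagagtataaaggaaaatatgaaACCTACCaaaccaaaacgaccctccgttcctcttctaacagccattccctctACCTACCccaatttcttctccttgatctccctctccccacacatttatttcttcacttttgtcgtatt
4CL2, chr3:7457405-7457444, AC element: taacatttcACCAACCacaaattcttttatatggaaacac

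The W-box core stood in 4 of the 9 windows (PAL1, PAL2, C4H and 4CL5) and in 50.4% of the 27443 windows of the same length in the genome. An AC element stood in 2 of the 9, with 2 copies in each, against 7.16% of all windows. ACCTACC was found at bases -120 and -68 of 4CL3, counted from the base before the start, and occurs in 1.33% of all windows. ACCAACC was found at bases -140 and -31 of 4CL2 and occurs in 3.18% of windows. ABCC8, the neighbouring gene, ends 28 bases before the start of 4CL2, so that the copy at -140 lies inside ABCC8 and the copy at -31 reaches across its end. ACCTAAC was in none of the 9, against 2.93% of all windows. The G-box stood only in the window of PAL4, against 7.09% of all, and AATATCT only in that of C4H, against 11.8%. These matches describe letters in a short window and say nothing on whether a factor binds there.

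All 9 genes were lower in 2-AA seedlings than in mock seedlings, 7 of them by 2-fold or more. In flg22 seedlings 7 were lower than in mock, 3 of them by 2-fold or more, 4CL5 was higher and 4CL2 was not called. All 9 were lower in 2-AA than in flg22 seedlings. Between 2-AA and mock, 62.2% of all genes tested were called, 31.2% of all as higher and 31.1% as lower. Between flg22 and mock the shares were 59.2% in either direction, 29.8% higher and 29.4% lower. Between 2-AA and flg22 they were 15.8% in either direction, 7.86% higher and 7.89% lower. Genes called at least 2-fold lower made up 11.9% of all genes between 2-AA and mock, 9.71% between flg22 and mock and 1.48% between 2-AA and flg22. The median log2 fold change of the 9 genes was -2.02 for 2-AA over mock, -0.50 for flg22 over mock and -1.08 for 2-AA over flg22, beside medians within 0.007 of 0 over all genes. All 3 2-AA libraries lay below all 3 mock libraries for each of the 9 genes and for 34.1% of all genes tested. The flg22 libraries lay below the mock libraries for 6 of the 9 and for 32.8% of all genes, and the 2-AA libraries below the flg22 libraries for 9 of the 9 and for 16.2% of all genes.

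**Figure D1:**
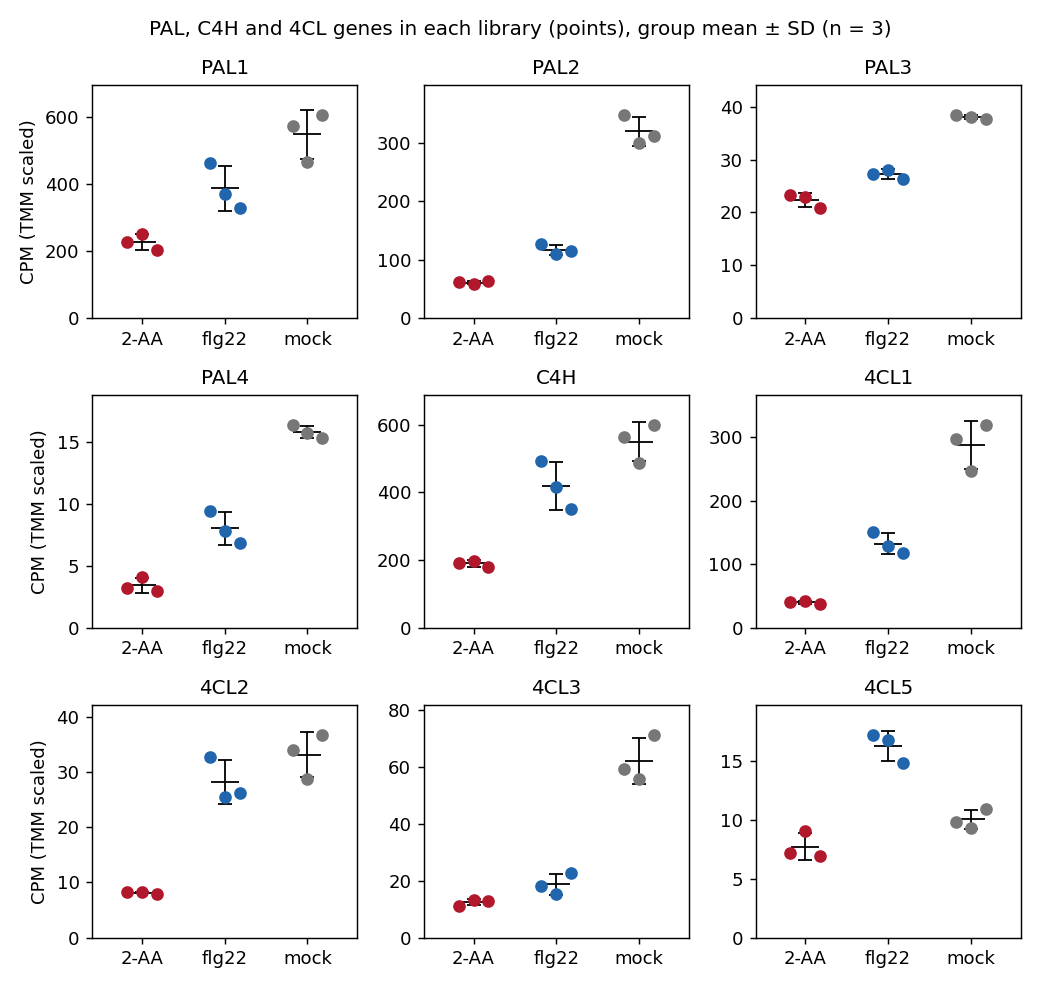
CPM of each of the 9 genes (vertical axis, 1 panel per gene, from 0) in 2-AA, flg22 and mock seedlings, with a point per library and lines for the group mean ± SD (n = 3). The 2-AA libraries lay below all mock libraries for each of the 9 genes, as for 34.1% of all genes tested, and 4CL5 alone was highest in the flg22 libraries.

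Among the 4 ammonia-lyases, PAL1 (AT2G37040, chr2:15557367-15560755, minus strand) was the most abundant in every group. It had 227.4, 250.5 and 204.7 CPM in 2-AA libraries 1 to 3, 462.4, 371.0 and 328.7 CPM in flg22 libraries and 575.3, 466.1 and 606.1 CPM in mock libraries. The 3 groups did not overlap, although flg22 replicate 1 came close to mock replicate 2. The log2 fold change was -1.27 for 2-AA over mock (SE 0.13, edgeR adjusted p = 1.46e-06) and -0.50 for flg22 over mock (SE 0.12, adjusted p = 0.00362).

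PAL2 (AT3G53260, chr3:19744018-19747114, minus strand), the nearest relative of PAL1, was lowered further. It had 61.05, 57.74 and 62.71 CPM in 2-AA libraries, 126.7, 109.3 and 114.9 CPM in flg22 libraries and 347.8, 300.3 and 313.0 CPM in mock libraries. The spread within groups was small beside the gaps between them, and no library of 1 group reached another. PAL2 was 5.29-fold lower in 2-AA than in mock seedlings (log2 fold change -2.40, SE 0.08, adjusted p = 1.14e-10) and 2.74-fold lower in flg22 than in mock seedlings (-1.45, SE 0.08, adjusted p = 5.61e-09). Only 1.59% of all genes tested had a lower log2 fold change between 2-AA and mock.

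PAL3 (AT5G04230, chr5:1160569-1163957, plus strand), an isoform that contributes little to total activity, changed least of the 4. It had 23.38, 22.93 and 20.84 CPM in 2-AA libraries, 27.34, 28.10 and 26.38 CPM in flg22 libraries and 38.38, 37.98 and 37.78 CPM in mock libraries. The mock libraries were close to each other and lay above all treated ones. The log2 fold change was -0.77 for 2-AA over mock (SE 0.07, adjusted p = 8.85e-07) and -0.48 for flg22 over mock (SE 0.07, adjusted p = 7.12e-05).

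PAL4 (AT3G10340, chr3:3203988-3208135, plus strand) was the scarcest of the 4. It had 3.22, 4.08 and 2.99 CPM in 2-AA libraries, 9.44, 7.85 and 6.83 CPM in flg22 libraries and 16.40, 15.78 and 15.36 CPM in mock libraries. The groups were again separate, with the 2-AA libraries lowest. PAL4 was 4.64-fold lower in 2-AA than in mock seedlings (log2 fold change -2.21, SE 0.15, adjusted p = 4.23e-08) and 1.97-fold lower in flg22 than in mock seedlings (-0.98, SE 0.14, adjusted p = 5.49e-05).

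C4H (AT2G30490, chr2:12993625-12996012, minus strand), the single gene for its step in this plant, had 192.0, 198.3 and 180.1 CPM in 2-AA libraries, 491.8, 414.8 and 351.4 CPM in flg22 libraries and 565.1, 486.8 and 598.6 CPM in mock libraries. The 2-AA libraries lay far below the others, while flg22 replicate 1 lay above mock replicate 2, so that the flg22 and mock groups overlapped. C4H was 2.89-fold lower in 2-AA than in mock seedlings (log2 fold change -1.53, SE 0.11, adjusted p = 6.55e-08). It was 1.31-fold lower in flg22 than in mock seedlings (-0.39, SE 0.11, adjusted p = 0.00716), a call that was lost without the 3 libraries rich in chloroplast reads (-0.31, adjusted p = 0.077).

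Among the 4 ligases, 4CL1 (AT1G51680, chr1:19158746-19161737, minus strand) was the most abundant and fell furthest under 2-AA of all 9 genes. It had 39.87, 42.01 and 37.89 CPM in 2-AA libraries, 150.2, 128.8 and 117.6 CPM in flg22 libraries and 297.2, 246.4 and 318.7 CPM in mock libraries. The groups were separate by wide gaps. 4CL1 was 7.20-fold lower in 2-AA than in mock seedlings (log2 fold change -2.85, SE 0.11, adjusted p = 3.49e-10), and 0.997% of all genes tested had a lower log2 fold change. It was 2.17-fold lower in flg22 than in mock seedlings (-1.12, SE 0.10, adjusted p = 8.43e-07).

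4CL2 (AT3G21240, chr3:7454269-7457404, minus strand), the nearest relative of 4CL1, was called lower in 2-AA seedlings only. It had 8.198, 8.265 and 7.985 CPM in 2-AA libraries, 32.72, 25.53 and 26.25 CPM in flg22 libraries and 34.00, 28.73 and 36.66 CPM in mock libraries. The flg22 and mock groups overlapped, with flg22 replicate 1 above mock replicate 2. 4CL2 was 4.06-fold lower in 2-AA than in mock seedlings (log2 fold change -2.02, SE 0.12, adjusted p = 1.17e-08). Its log2 fold change for flg22 over mock was -0.23 (SE 0.11, adjusted p = 0.0919). Without mock replicate 2 it was -0.32 (adjusted p = 0.0367) and without flg22 replicate 1 it was -0.35 (adjusted p = 0.0189), both called.

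4CL3 (AT1G65060, chr1:24167202-24171635, minus strand), the isoform tied to flavonoids, was the member that flg22 lowered most. It had 11.16, 13.22 and 12.92 CPM in 2-AA libraries, 18.19, 15.48 and 22.80 CPM in flg22 libraries and 59.46, 55.71 and 71.25 CPM in mock libraries. All mock libraries lay more than 2-fold above all treated ones. 4CL3 was 5.00-fold lower in 2-AA than in mock seedlings (log2 fold change -2.32, SE 0.14, adjusted p = 1.06e-08) and 3.30-fold lower in flg22 than in mock seedlings (-1.72, SE 0.13, adjusted p = 1.63e-07).

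4CL5 (AT3G21230, chr3:7448040-7452106, minus strand), whose product is known to act on sinapate as well as on p-coumarate, was the only member higher in flg22 than in mock seedlings. It had 7.15, 9.03 and 6.94 CPM in 2-AA libraries, 17.18, 16.78 and 14.78 CPM in flg22 libraries and 9.84, 9.34 and 10.92 CPM in mock libraries. The flg22 libraries lay above all mock libraries, and the 2-AA libraries lay below the mock libraries, 2-AA replicate 2 only slightly. 4CL5 was 1.62-fold higher in flg22 than in mock seedlings (log2 fold change 0.70, SE 0.12, adjusted p = 0.000312), and 84.3% of all genes had a lower log2 fold change. It was 1.30-fold lower in 2-AA than in mock seedlings (-0.38, SE 0.13, adjusted p = 0.0187). That call was not kept when mock replicate 3 was left out (-0.31, adjusted p = 0.0792), nor without 2-AA replicate 1 (-0.33, adjusted p = 0.0688) or 2-AA replicate 3 (-0.31, adjusted p = 0.0735).

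4CL5 and 4CL2 lie on the same strand of chromosome 3, with 2162 bases between them. 4CL5 overlaps MKK5 (AT3G21220), a MAP kinase kinase gene of the opposite strand, by 459 bases, and it is not known whether reads were counted by strand. Reads of the 2 genes in that stretch can then not be told apart. MKK5 averaged 32.51 ± 2.24 CPM in 2-AA, 28.76 ± 0.978 CPM in flg22 and 28.87 ± 1.78 CPM in mock seedlings (SD, n = 3 each). It was called in none of the 3 comparisons, with edgeR adjusted p-values of 0.0761 for 2-AA over mock, 0.957 for flg22 over mock and 0.162 for 2-AA over flg22. Without 2-AA replicate 1 it was called higher in 2-AA than in mock seedlings (log2 fold change 0.23, adjusted p = 0.0375).

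On the other side, ABCC8 (AT3G21250), which encodes an ABC transporter, ends 28 bases upstream of 4CL2 on the same strand. It averaged 191.6 ± 10.6 CPM in 2-AA, 91.1 ± 3.24 CPM in flg22 and 81.73 ± 9.70 CPM in mock seedlings (SD, n = 3 each). It was higher in 2-AA than in mock seedlings (log2 fold change 1.23, SE 0.08, adjusted p = 4.17e-08), where 4CL2 was lower. For flg22 over mock it was 0.16 (adjusted p = 0.126). With mock replicate 3 left out it was 0.23 (adjusted p = 0.0448). 4CL1 overlaps AT1G51670 on the opposite strand by 24 bases, a locus with means of 0.440 CPM in 2-AA, 0.651 CPM in flg22 and 0.596 CPM in mock seedlings.

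Reads could also be split between relatives. PAL1 and PAL2 share 83.9% of their aligned coding bases and a longest identical transcript stretch of 80 bases, and 4CL1 and 4CL2 share 81.6% and a stretch of 35 bases. PAL3 and PAL4 share 78.9%. The other pairs of ammonia-lyases share 69.7% to 73.0% and the other pairs of ligases 66.7% to 70.1%.

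**Figure D2:**
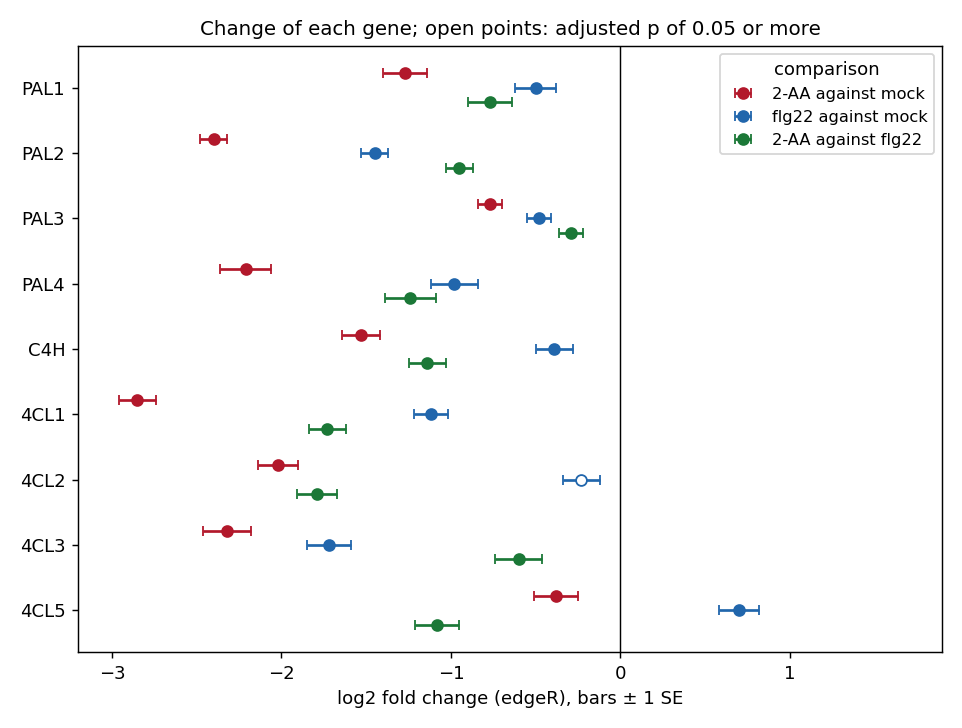
Log2 fold change (horizontal axis, bars ± 1 SE) of each of the 9 genes for 2-AA over mock, flg22 over mock and 2-AA over flg22, with an open point where the gene was not called. The fold changes for 2-AA over mock lie between -2.85 (4CL1) and -0.38 (4CL5), and 4CL5 alone lies above 0 for flg22 over mock.

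Set directly against flg22, 2-AA gave lower values of all 9 genes, and for each gene the 3 libraries of 2-AA lay below the 3 of flg22, as they did for 16.2% of all genes tested. The difference was largest for 4CL2, at 3.46-fold (log2 fold change -1.79, SE 0.12, adjusted p = 1.05e-06), and for 4CL1, at 3.31-fold (-1.73, SE 0.11, adjusted p = 5e-07). A lower log2 fold change was found for 0.803% of all genes tested than for 4CL2 and for 0.874% than for 4CL1. PAL4, C4H and 4CL5 were 2.35-fold, 2.21-fold and 2.11-fold lower, with log2 fold changes of -1.24, -1.14 and -1.08 and adjusted p-values of 0.000142, 1.76e-05 and 8.67e-05. PAL2 and PAL1 were 1.93-fold and 1.70-fold lower, with log2 fold changes of -0.95 and -0.77 and adjusted p-values of 4.03e-06 and 0.00109.

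The smallest differences between 2-AA and flg22 were those of 4CL3 (log2 fold change -0.60, SE 0.14, adjusted p = 0.0101) and PAL3 (-0.29, SE 0.07, adjusted p = 0.0178). The 4CL3 call was lost without 2-AA replicate 1 (-0.53, adjusted p = 0.0514). The PAL3 call was lost without flg22 replicate 1 (adjusted p = 0.0531), flg22 replicate 2 (-0.26, adjusted p = 0.054) or 2-AA replicate 3 (-0.24, adjusted p = 0.069), without the 3 libraries rich in chloroplast reads (-0.28, adjusted p = 0.0948) and in a fit of the 2 groups alone (-0.28, adjusted p = 0.0544).

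To compare levels between genes, CPM were divided by the length of the longest annotated transcript in kilobases. C4H was the most abundant of the 9 in every group, at 91.3 ± 4.42 CPM per kilobase in 2-AA, 201 ± 33.7 in flg22 and 264 ± 27.5 in mock seedlings (SD, n = 3 each), followed by PAL1. In mock seedlings 4CL1 and PAL2 came next and overlapped, then 4CL3, then 4CL2 and PAL3, which overlapped, then PAL4, and 4CL5 was last. In flg22 seedlings the order after PAL1 was 4CL1, PAL2, 4CL2, PAL3, 4CL3, 4CL5 and PAL4. Neighbours from PAL3 to 4CL5 in that order overlapped pair by pair. In 2-AA seedlings PAL2 stood above 4CL1, followed by PAL3, 4CL3, 4CL2, 4CL5 and PAL4, with an overlap between 4CL2 and 4CL5. The last place thus belonged to 4CL5 in mock seedlings and to PAL4 in both treated groups.

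Summed per kilobase, the 4 ammonia-lyases reached 109, 116 and 101 CPM per kilobase in 2-AA libraries, 216, 178 and 165 in flg22 libraries and 338, 283 and 335 in mock libraries. The sums for the 4 ligases were 30.6, 33.5 and 30.3 CPM per kilobase in 2-AA libraries, 100, 85.5 and 83.4 in flg22 libraries and 183, 156 and 200 in mock libraries. Neither sum overlapped between groups. As a share of the mock mean, 2-AA seedlings held 34.0% for the ammonia-lyases, 34.6% for C4H and 17.5% for the ligases. The flg22 seedlings held 58.4% for the ammonia-lyases, 76.2% for C4H and 49.9% for the ligases.

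**Figure D3:**
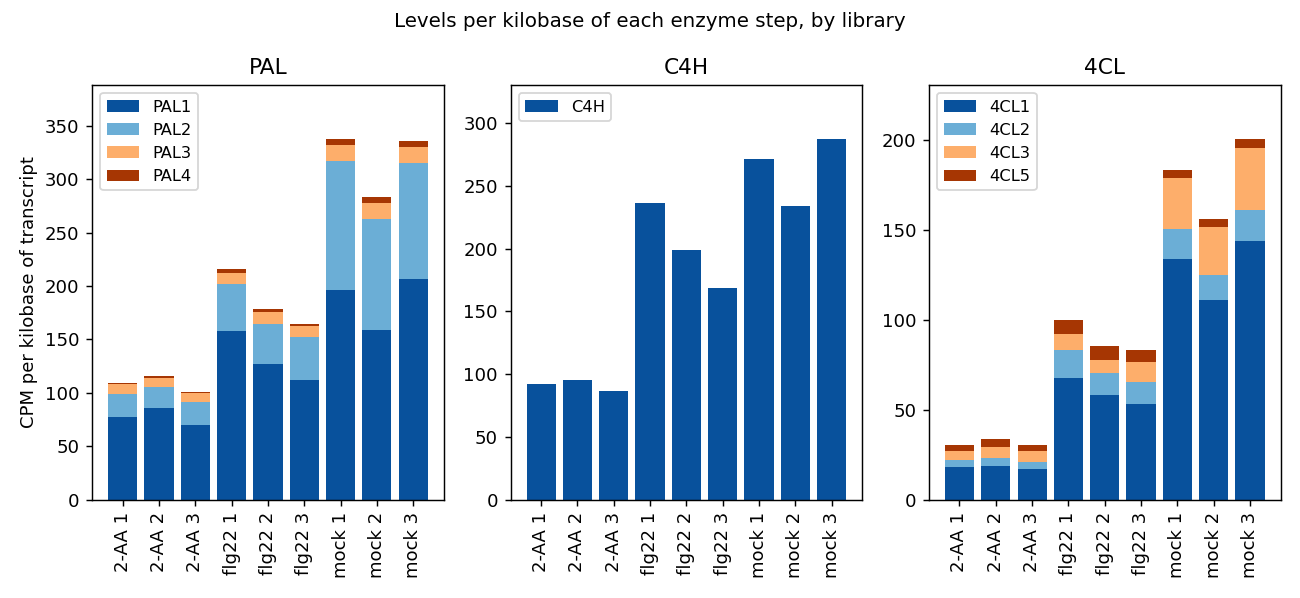
Level per kilobase of transcript (CPM per kilobase, vertical axis from 0) in each 2-AA, flg22 and mock library, in 1 panel each for PAL, C4H and 4CL, with the genes of a family stacked in a bar. The 2-AA bars are the lowest in all 3 panels, and only in the C4H panel does a flg22 bar (236) reach above a mock bar (234).

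Within the ammonia-lyases, PAL1 made up 71.5% ± 2.23 of the sum in 2-AA, 70.8% ± 2.52 in flg22 and 58.6% ± 2.81 in mock seedlings (SD, n = 3 each). The share of PAL2 was 19.4% ± 2.15 in 2-AA, 21.9% ± 2.00 in flg22 and 34.9% ± 2.29 in mock seedlings. Both treated groups lay apart from mock in these shares and overlapped with each other. PAL3 made up 7.95% ± 0.320 in 2-AA, 5.71% ± 0.718 in flg22 and 4.63% ± 0.463 in mock seedlings, and the 2-AA libraries lay above all others. The ratio of PAL2 to PAL1 was 0.271 in 2-AA, 0.309 in flg22 and 0.595 in mock seedlings as a geometric mean. With 3 libraries against 3 the smallest p of a two-sided exact permutation test is 0.10, which this ratio reached for both treated groups against mock. It gave 0.40 for 2-AA against flg22. Over the 27 ratio comparisons made, the adjusted values were 0.11 and 0.42.

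Within the ligases, 4CL1 made up 57.2% ± 1.34 of the sum in 2-AA, 66.3% ± 2.43 in flg22 and 71.9% ± 0.955 in mock seedlings (SD, n = 3 each). The share of 4CL5 was 11.4% ± 1.05 in 2-AA, 8.48% ± 0.600 in flg22 and 2.61% ± 0.158 in mock seedlings. 4CL2 made up 12.4% ± 0.525 in 2-AA, 15% ± 0.684 in flg22 and 8.84% ± 0.0619 in mock seedlings. The shares of 4CL1, 4CL2 and 4CL5 did not overlap between any of the groups. The 4CL3 share was 19.0% ± 1.46 in 2-AA, 10.2% ± 2.55 in flg22 and 16.6% ± 0.890 in mock seedlings. 4CL3 thus held its highest share in 2-AA libraries, between 17.5% and 20.5%, and its lowest in flg22 libraries, between 8.69% and 13.1%, with mock libraries between 15.6% and 17.2%.

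The ratio of 4CL5 to 4CL2, the adjacent pair on chromosome 3, was 0.914 in 2-AA, 0.564 in flg22 and 0.296 in mock seedlings. All 3 groups were separate, and the exact permutation p was the smallest possible, 0.10, in each comparison. The ratio of 4CL1 to C4H, the main genes of consecutive steps, was 0.197 in 2-AA, 0.297 in flg22 and 0.489 in mock seedlings, also without overlap (exact permutation p = 0.10 in each). The ratio of PAL1 to C4H moved less, at 0.848 in 2-AA, 0.656 in flg22 and 0.708 in mock seedlings.

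Several of the genes ranked the replicates of a group alike. PAL1, C4H, 4CL1 and 4CL5 ranked the libraries alike in all 3 groups, with 2-AA replicate 2, flg22 replicate 1 and mock replicate 3 highest. The lowest were 2-AA replicate 3, flg22 replicate 3 and mock replicate 2. The order of C4H was found in 6 of the 9 genes in 2-AA, in 5 in flg22 and in 6 in mock libraries, C4H included in each count. The share of all genes with that order was not counted, so these counts cannot set the 9 genes apart. Of the libraries ranked highest, 2-AA replicate 2 and mock replicate 3 were also among those rich in chloroplast reads, and the part of this in the order was not tested.

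The genes most like the leading member of each family over the 9 libraries were found by the root mean square difference of centred log2 CPM among 15416 genes. For C4H they were AT5G24760 (0.158), AT2G34510 (0.180) and CCoAOMT1 (0.198), a methyltransferase gene of monolignol synthesis, while the value between C4H and PAL1 was 0.162. For PAL1 they were RAD52-2 (0.149), AT2G40520 (0.167) and OMT1 (0.173), the caffeate O-methyltransferase gene. For 4CL1 they were AT2G10940 (0.248), ESM1 (0.249) and MSRB6 (0.261), so that 4CL1 had no gene as near to it as C4H and PAL1 had. The measure is not scaled to the size of a gene's change, and 4CL1 fell furthest under 2-AA of the 9 genes. The part of this in its larger values was not tested. All these values describe likeness over 9 libraries that share treatments, and no test was made of them.

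Lists of genes upstream and downstream of the entry steps were counted in the same way. Their counts stand beside the shares of all genes tested. These were 31.2% higher and 31.1% lower for 2-AA over mock, and 29.8% and 29.4% for flg22 over mock. For 2-AA over flg22 they were 7.86% and 7.89%. Of 18 genes of phenylalanine supply, 17 were tested. In 2-AA over mock 5 were higher, 11 lower and 1 not called, with a median log2 fold change of -0.47, and 3 were higher without the 3 libraries rich in chloroplast reads. In flg22 over mock 4 were higher, 9 lower and 4 not called, with a median of -0.31. In 2-AA over flg22 0 were higher, 6 lower and 11 not called, with a median of -0.17. DHS2, which encodes a DAHP synthase of the first shikimate step, averaged 206.2 CPM in 2-AA, 201.5 in flg22 and 108.8 in mock seedlings, with log2 fold changes of 0.92 (adjusted p = 3.66e-08) and 0.89 (adjusted p = 6.85e-08) over mock. AT1G22410, annotated as another DAHP synthase, averaged 117.2 CPM in 2-AA, 175.9 in flg22 and 327.7 in mock seedlings, with log2 fold changes of -1.48 (adjusted p = 2.46e-08) and -0.90 (adjusted p = 3.04e-06) over mock. DHS2 and AT1G22410 thus moved in opposite directions. DHS1, a further DAHP synthase gene of the list, had log2 fold changes of -0.99 for 2-AA over mock (adjusted p = 1.13e-07) and -0.04 for flg22 over mock (not called). For 2-AA over flg22 that of DHS1 was -0.94 (adjusted p = 4.03e-06).

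Of 11 genes of monolignol synthesis, all tested, 1 was higher, 8 lower and 2 not called in 2-AA over mock, with a median log2 fold change of -1.0. In flg22 over mock 1 was higher, 6 lower and 4 not called, with a median of -0.41. The largest fall under 2-AA was that of CAD4, a cinnamyl alcohol dehydrogenase gene, at 116.3 CPM in 2-AA and 415.0 CPM in mock seedlings (log2 fold change -1.84, SE 0.08, adjusted p = 9.2e-10). Under flg22 it was that of CCR1, a cinnamoyl-CoA reductase gene, at 22.65 CPM in flg22 and 56.83 CPM in mock seedlings (-1.33, SE 0.09, adjusted p = 5.27e-08). The 1 gene that rose in both was REF1, which encodes an aldehyde dehydrogenase that makes ferulate and sinapate. Its log2 fold change was 1.05 for 2-AA over mock (SE 0.08, adjusted p = 1.1e-07) and 0.71 for flg22 over mock (SE 0.08, adjusted p = 5.15e-06). For 2-AA over flg22, 1 of the 11 was higher, 8 were lower and 2 were not called, with a median of -0.61. Without the 3 libraries rich in chloroplast reads, 0 were higher there.

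Of 7 flavonoid genes, 6 were tested, and 1 was higher and 5 were lower in each treated group against mock, with medians of -0.80 for 2-AA and -0.75 for flg22. F3H, the gene not tested, averaged 0 CPM in 2-AA and flg22 and 0.011 CPM in mock libraries. CHS, of the same list, averaged 771.5 CPM in mock libraries. Whether reads of F3H were lost in counting was not tested. Between 2-AA and flg22 edgeR called 0 of the 6, with 0 at an unadjusted p under 0.05, and DESeq2 and limma-voom also called 0. All 9 entry genes were called lower there, as were 8 of 11 monolignol genes and 6 of 17 genes of phenylalanine supply. Of all genes tested, 7.89% were. DFR, which encodes dihydroflavonol 4-reductase, had 0.766, 0.152 and 0.370 CPM in 2-AA libraries, 0.328, 0.434 and 3.11 CPM in flg22 libraries and 21.35, 16.97 and 19.96 CPM in mock libraries. Its flg22 value rested on replicate 3, which lay far above the other 2. The log2 fold change of DFR was -5.45 for 2-AA over mock (adjusted p = 5.78e-06), and -6.14 without 2-AA replicate 1. It was -3.90 for flg22 over mock (adjusted p = 3.88e-05), and -5.66 without flg22 replicate 3. The gene that was higher in both was TT7, a flavonoid 3'-hydroxylase gene, with log2 fold changes of 0.39 for 2-AA (adjusted p = 0.0121) and 0.48 for flg22 (adjusted p = 0.00349) over mock. The call for 2-AA was lost without mock replicate 2 (0.30, adjusted p = 0.0566).

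PAL protein is known to be marked for degradation by the Kelch-repeat F-box proteins KFB01, KFB20, KFB39 and KFB50. KFB01 had 139.7, 171.9 and 115.0 CPM in 2-AA libraries, 62.39, 59.12 and 48.16 CPM in flg22 libraries and 43.23, 46.83 and 41.53 CPM in mock libraries. All 2-AA libraries lay above the others, and the log2 fold change was 1.70 for 2-AA over mock (SE 0.13, adjusted p = 1.27e-07). For flg22 over mock it was 0.37 (adjusted p = 0.0276), a call lost on leaving out mock replicate 1 (adjusted p = 0.0638) or mock replicate 3 (0.34, adjusted p = 0.0712), and also without flg22 replicate 1 (0.29, adjusted p = 0.106), without flg22 replicate 2 (0.34, adjusted p = 0.0711) or without the 3 libraries rich in chloroplast reads (0.31, adjusted p = 0.0649).

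KFB20 averaged 103.5 ± 5.83 CPM in 2-AA, 43.25 ± 12.4 in flg22 and 79.91 ± 14.9 in mock seedlings (SD, n = 3 each). It fell under flg22 (log2 fold change -0.89 over mock, SE 0.17, adjusted p = 0.000557) and was not called for 2-AA over mock (0.37, adjusted p = 0.0678), except without mock replicate 1 (0.52, adjusted p = 0.0271), without flg22 replicate 2 (0.38, adjusted p = 0.0157) or without flg22 replicate 3 (0.37, adjusted p = 0.0269). It was also called without the filter on low counts, by limma-voom, in a fit of the 2 groups alone and with the replicate number as a block. KFB39, listed in RefSeq as KMD3, had no count in any library, and KFB50 averaged 0.0782 CPM in 2-AA, 0.0467 CPM in flg22 and 0 in mock libraries. The gene models used in counting are not known, so these values need not mean that KFB39 and KFB50 were silent. Of the 6 tested genes in this list, which also held reductases and scaffold proteins of the P450 enzymes, 4 were higher, 1 lower and 1 not called in 2-AA over mock. In flg22 over mock 4 were higher and 2 lower. ATR1, a cytochrome P450 reductase gene, averaged 254.8 CPM in 2-AA, 231.5 CPM in flg22 and 153.9 CPM in mock seedlings. Its log2 fold change was 0.73 for 2-AA (SE 0.06, adjusted p = 3.23e-07) and 0.59 for flg22 (SE 0.06, adjusted p = 2.85e-06) over mock. ATR2, another such gene, had log2 fold changes of -0.30 for 2-AA (adjusted p = 0.00218) and -0.34 for flg22 (adjusted p = 0.000868) over mock.

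**Figure D4:**
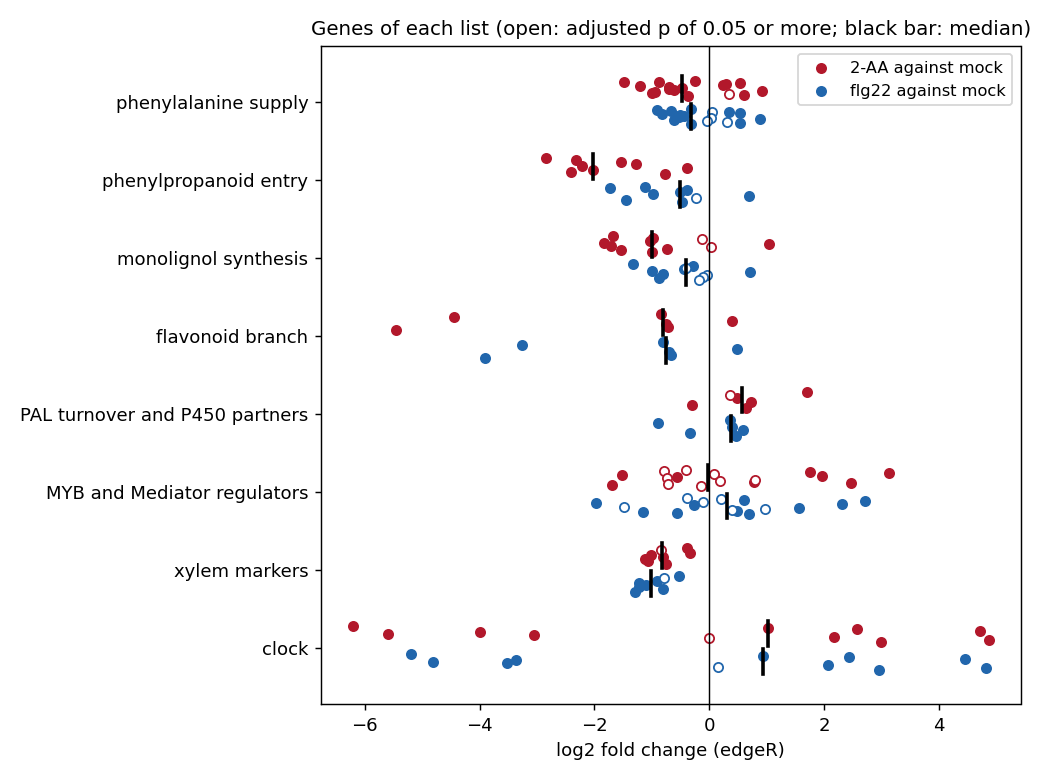
Log2 fold change (horizontal axis) of every tested gene of 8 lists, for 2-AA over mock (red) and flg22 over mock (blue), with open points for genes not called and a black bar at each median. The median of the entry genes for 2-AA over mock was -2.02, beside -0.47 for phenylalanine supply, -1.0 for monolignol synthesis and -0.80 for the flavonoid branch.

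Of 17 regulators from the MYB family and the Mediator complex, 16 were tested. In 2-AA over mock 5 were higher, 3 lower and 8 not called, and in flg22 over mock 6 were higher, 4 lower and 6 not called. Of all genes tested, 62.2% were called in either direction for 2-AA over mock and 59.2% for flg22 over mock. The counts thus do not set these regulators apart from all genes. In a fit of the 2 groups alone 5 were lower for 2-AA, and without the 3 libraries rich in chloroplast reads 2 were lower for flg22. MYB4, which encodes a repressor of C4H, averaged 98.57 ± 6.54 CPM in 2-AA, 24.75 ± 4.04 CPM in flg22 and 17.80 ± 1.45 CPM in mock seedlings (SD, n = 3 each). It was 5.54-fold higher in 2-AA than in mock seedlings (log2 fold change 2.47, SE 0.11, adjusted p = 9.22e-10). For flg22 over mock the log2 fold change was 0.48 (SE 0.11, adjusted p = 0.00219) and for 2-AA over flg22 it was 1.99 (SE 0.11, adjusted p = 1.65e-07). The part of MYB4 in the level of C4H was not tested.

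MYB12, an activator of flavonol genes, had the largest rise of the list, with log2 fold changes of 3.14 for 2-AA (adjusted p = 8.92e-10) and 2.72 for flg22 (adjusted p = 4.34e-09) over mock. MYB15, a factor known to promote lignification in defence, had 3.54, 3.39 and 3.30 CPM in 2-AA libraries, 6.33, 4.95 and 1.83 CPM in flg22 libraries and 1.21, 0.578 and 0.855 CPM in mock libraries. The treated libraries all lay above the mock libraries, and flg22 replicate 3 was the lowest of them. Its log2 fold change was 1.96 for 2-AA (SE 0.41, adjusted p = 0.000932) and 2.32 for flg22 (SE 0.40, adjusted p = 0.000264) over mock, while 4CL5 alone of the 9 entry genes was higher in flg22. RFR1, which encodes a Mediator subunit that restrains phenylpropanoid genes, fell by 0.56 on the log2 scale under 2-AA (adjusted p = 4.19e-06) and by 0.27 under flg22 (adjusted p = 0.00224).

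Genes of the circadian clock, whose output includes phenylpropanoid genes, also differed between the groups. Of 11 clock genes 6 were higher and 4 lower in each treated group against mock. Of all genes tested, 62.2% were called in either direction for 2-AA over mock and 59.2% for flg22 over mock. CCA1, a morning-phased factor, averaged 2.86 ± 1.91 CPM in 2-AA, 5.02 ± 1.73 in flg22 and 141.5 ± 14.4 in mock seedlings (SD, n = 3 each). Its log2 fold change was -5.60 for 2-AA over mock (SE 0.30, adjusted p = 4.41e-09), and -6.32 without 2-AA replicate 3, and it was -4.81 for flg22 over mock (SE 0.28, adjusted p = 1.35e-08). LHY, its partner, averaged 2.91 CPM in 2-AA, 6.02 in flg22 and 221.2 in mock seedlings, with log2 fold changes of -6.21 and -5.19 over mock, and -7.07 for 2-AA without replicate 3. PRR5, an evening-side repressor, averaged 51.69 CPM in 2-AA, 49.73 in flg22 and 1.76 in mock seedlings, with log2 fold changes of 4.87 and 4.82 over mock. Between 2-AA and flg22 edgeR called 0 of the 11, with 5 at an unadjusted p under 0.05, while DESeq2 called 0 and limma-voom 1. In a fit of the 2 groups alone edgeR called 1 higher. Without 2-AA replicate 3 it called 3 lower and 1 higher, without mock replicate 3 it called 1 higher, and without flg22 replicate 2 or flg22 replicate 3 it called 1 lower. The part of the clock state in the lower entry genes was not tested.

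Markers of tissues that use phenylpropanoids were counted as well. Of all genes tested, 31.1% were called lower for 2-AA over mock and 29.4% for flg22 over mock. In these bulk samples fewer cells of a type and less RNA per cell cannot be told apart. Of 8 xylem markers 7 were lower in each treated group against mock, with medians of -0.82 for 2-AA and -1.0 for flg22, and none was at 0. Their summed level was 117 to 131 CPM in 2-AA, 96.7 to 119 CPM in flg22 and 188 to 208 CPM in mock libraries, so that the 2-AA range reached above the flg22 range. The summed level of the 9 entry genes was 537 to 606 CPM in 2-AA, 1010 to 1336 CPM in flg22 and 1647 to 2008 CPM in mock libraries. CESA7, a cellulose synthase gene of the secondary wall, averaged 9.34 CPM in 2-AA and 20.15 CPM in mock seedlings (log2 fold change -1.11, SE 0.11, adjusted p = 1.67e-06). LAC17, a laccase gene of lignification, averaged 5.13 CPM in flg22 and 12.60 CPM in mock seedlings (-1.29, SE 0.16, adjusted p = 1.07e-05).

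Of 7 root endodermis markers 1 was lower in 2-AA and 4 in flg22 against mock, and 2 in flg22 without mock replicate 3. For 2-AA over mock the other 6 were not called. Their summed level was 30.7 to 37.2 CPM in 2-AA, 19.4 to 26.3 CPM in flg22 and 33.5 to 40.0 CPM in mock libraries. The 2-AA and mock ranges thus overlapped. CASP1, a Casparian strip gene, averaged 10.43 CPM in flg22 and 15.32 CPM in mock seedlings (log2 fold change -0.56, SE 0.13, adjusted p = 0.00265). Of 3 shoot markers 3 were lower in 2-AA and 2 in flg22, with summed levels of 12792 to 14608 CPM in 2-AA, 14877 to 15955 CPM in flg22 and 19368 to 19833 CPM in mock libraries. LHCB3, a light-harvesting protein gene, fell by 2.59 on the log2 scale under 2-AA and by 2.53 under flg22 against mock. CAB3 had log2 fold changes of -2.56 and -1.66. RBCS1A, the most abundant of the 3, moved little, at -0.23 for 2-AA (edgeR adjusted p = 0.00314) and -0.05 for flg22 over mock (not called). The part of these shifts in the levels of the entry genes was not tested.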

How the data were processed

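The authors deposited a single count table for the series, holding raw counts of reads for 32833 loci in 9 libraries. Per the submitters' processing notes, Trimmomatic 0.36, HISAT2 and edgeR were used with TAIR10. No source names the counting program, its gene models or its handling of strand, so antisense and overlapping genes may share reads. Per the labels, an Illumina TruSeq kit was used on 1 ug of RNA.

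Genes with enough counts for edgeR's filterByExpr (minimum count 10, minimum total 15) were kept, which left 21059. Counts were scaled by TMM (factors 0.974 to 1.03) and fitted in 1 model of the 3 group means with edgeR 4.0.16 in R 4.3.3 (6 residual degrees of freedom, common biological coefficient of variation 0.119). CPM use the TMM-scaled library sizes. Alternatives used DESeq2 1.42.0 and limma 3.58.1, and those for named genes of the lists and for the counts per list were added after the data were seen. The floor of 3 counts covers counting error only, while standard errors and p-values rest on the spread between libraries.

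The 9 genes and the 9 other lists were chosen with earlier results of these data known. All 9 genes were named. From each list, the called genes with the largest rise and fall against mock were named where they reached 5 CPM in the higher group, and KFB genes, MYB4, MYB15 and CCA1 were named whether called or not. RBCS1A, CAB3, F3H, CHS and DHS1 were named in addition, to show values of their lists that this rule left out. Names, lengths and coordinates came from the RefSeq annotation of TAIR10.1, in which 32548 loci were matched by locus code, and the genes next to members were named for their position. Of 99 list entries, 93 carried the same name there.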

Additional observations from a re-analysis of the deposited data

How the results depend on the processing

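Over scaling, tool, filter, block, group, threshold and leave-out alternatives, the log2 fold changes of the 9 genes kept sign and call in 439 cases, gained a call in 2 and lost one in 18, and none reversed. The number of the 9 genes called ran from 8 to 9 in each comparison when 1 library was left out. The number of all genes called then ran from 11293 to 12505 for flg22 over mock, from 12060 to 13198 for 2-AA over mock and from 2204 to 3392 for 2-AA over flg22, the lowest of these without 2-AA replicate 2, which is also the library richest in chloroplast reads. Without the 3 libraries rich in chloroplast reads, 2090 genes were called for 2-AA over flg22. Tested against a 1.5-fold change, 4 of the 9 genes were called for flg22 over mock, 8 for 2-AA over mock and 6 for 2-AA over flg22, and 4836, 5586 and 473 genes of all were called for flg22 over mock, 2-AA over mock and 2-AA over flg22. PAL1, PAL3, C4H and 4CL5 lost their calls for flg22 over mock under that test, 4CL5 for 2-AA over mock, and PAL1, PAL3 and 4CL3 for 2-AA over flg22. Counts within the lists fell under it too, for flg22 over mock to 1 higher and 2 lower in phenylalanine supply and to 0 in both directions in PAL turnover and P450 partners. For 2-AA over mock they fell to 1 higher and 5 lower in phenylalanine supply, and 3 xylem markers were called lower. For 2-AA over flg22 the genes called lower fell from 8 to 2 in monolignol synthesis and from 6 to 1 in phenylalanine supply. The 1 monolignol gene called higher there lost its call. The share of 4CL1 among the ligases without division by length was 58.5% in 2-AA and 73.2% in mock. Deviations of same-numbered libraries from their group means correlated weakly (r between -0.134 and 0.188 over 9 pairs, 1 of them over 0.1). The highest r between groups, 0.22, joined mock replicate 3 and 2-AA replicate 2, both rich in chloroplast reads. These values gave no sign that the numbers pair the samples, but they cannot exclude a shared day or culture. With the replicate number as a block, 9 of the 9 genes were called for 2-AA over mock, 8 for flg22 over mock and 9 for 2-AA over flg22, and KFB20 was called higher for 2-AA over mock (0.39, adjusted p = 0.0178). Neither TMM nor DESeq2 scaling moved the median of all genes by as much as 0.1 on the log2 scale. Both set the typical gene near 0, so this median cannot show whether most genes shifted together. Precision is set by 3 libraries a group.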
